A study of Homo sapiens with 21 samples.

Results

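Circular RNAs were compared between FaDu cells carrying the IGF2BP3 knockdown construct named sh3-2 and control cells named shCtr, with 3 libraries of each. FaDu is an established human line derived from a hypopharyngeal squamous carcinoma. The circRNAs described are all 6648 that the deposited sheets list for this comparison, of 8714 listed in the series, and the libraries are 6 of 21. The sh3-2 libraries are labelled as IGF2BP3 knockdown in both genotype and treatment, and the shCtr libraries as wild type with no agent named. How the construct was delivered, for how long and in how many clones is not stated in the labels, and the labels do not say that the replicates A, B and C are separate cultures, so the spread between them may be technical. The series also holds circRNA libraries of another construct, sh3-1, and methylated RNA immunoprecipitation libraries (MeRIP-seq) of sh3-2 and shCtr.

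A circRNA forms when the spliceosome joins the end of an exon to the start of the same or an earlier exon of the transcript, a reaction called back-splicing. The closed product has no free ends and is usually long-lived, and it is recognised in sequencing by reads that cross the back-splice junction. IGF2BP3 is an RNA-binding protein of fetal tissue and of many carcinomas that binds transcripts, among them ones marked with N6-methyladenosine (m6A), and is known for stabilising its messenger RNA targets.

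The values are counts of back-splice junction reads per circRNA and library. The sh3-2 libraries A, B and C held 3869, 3775 and 4168 junction reads, and the shCtr libraries A, B and C held 5502, 5552 and 5818. All 3 sh3-2 totals were below all 3 control totals (exact two-sided permutation p = 0.1, the smallest that 3 against 3 libraries can give). Levels below are therefore given as reads per 10000 junction reads of the library or as a share of its junction reads. The number of reads sequenced per library was not examined here. A difference in sequencing depth, fewer circle-bearing cells and less circular RNA per cell cannot be told apart in such bulk samples. A count of 0 in 1 library allows a share of up to 0.0795% in the smallest and 0.0516% in the largest library (3 counts of the total, counting error only). Among the sh3-2 libraries, B and C stood apart from A: B and C shared 707 circRNAs, 27.9% of those found in either, whereas the other 14 pairs of libraries shared 12.5% to 17.7%.

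The targeted gene could not be used to check the labels. IGF2BP3 hosted 4 listed circRNAs with 3, 6 and 0 reads in sh3-2 A, B and C and 6, 2 and 0 in shCtr A, B and C, which is too few to read a direction, and its linear messenger RNA was not analysed here. Of 15 markers of squamous epithelium, 1 hosted listed circles: EGFR, the epidermal growth factor receptor, with 4 reads in shCtr C and 0 in the other 5 libraries. None of the markers of fibroblasts, immune cells or endothelium hosted a listed circle. An absent marker says only that no circle of that gene was listed.

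The circle repertoire was sparse and mostly not shared between libraries. Of the 6648 circRNAs, 2049 (30.8%) had reads in sh3-2 libraries only, 3164 (47.6%) in control libraries only and 1435 (21.6%) in both groups. Reads in 1 library alone were found for 4475 circRNAs, and 114 had reads in all 6. The 387 circRNAs with at least 10 reads over the 6 libraries made up 31.5% of the junction reads.

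The number of different circRNAs per library was lower in sh3-2 as counted but overlapped at equal depth. As counted, 1484, 1495 and 1746 circRNAs were found in sh3-2 A, B and C, and 2049, 2072 and 1784 in shCtr A, B and C. In a draw of 3775 junction reads from each library the expected numbers were 1475, 1495 and 1684 against 1798, 1815 and 1593. The sh3-2 mean of 1551 ± 115 (SD, n = 3) was below the control mean of 1736 ± 123, but sh3-2 C lay above shCtr C (exact permutation p = 0.2). Host genes at the same depth numbered 1128 ± 67.4 in sh3-2 and 1250 ± 81.5 in controls, and these groups overlapped too (exact permutation p = 0.2). The 10 most abundant circRNAs took 7.29%, 7.10% and 6.41% of the sh3-2 reads and 6.11%, 5.89% and 4.59% of the control reads, with every sh3-2 library above every control (exact permutation p = 0.1). The separation was lost for the 50 most abundant (14.1% ± 0.95 against 12.9% ± 1.37, exact permutation p = 0.4) and among circRNAs found in at least 2 libraries (difference 0.892 percentage points, p = 0.6).

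The deposited annotation sorts circles into exonic, sense overlapping, intronic, antisense and intergenic classes, and the groups were apart in the exonic and intronic shares without passing the test. Exonic circles, the class made of spliced exons, held 75.8%, 77.8% and 78.2% of the reads in sh3-2 A, B and C and 79.6%, 80.5% and 79.8% in shCtr A, B and C. Intronic circles held 9.43%, 8.32% and 8.66% in sh3-2 and 7.18%, 6.47% and 6.82% in controls. The exonic share was lower and the intronic share higher in each sh3-2 library than in any control, by a mean of 2.74 and 1.98 percentage points. Both comparisons reached the smallest exact permutation p of 0.1, or 0.25 after Benjamini-Hochberg adjustment over the 5 classes, and so did not pass the test. Sense overlapping circles, at 13.7% ± 0.92 and 13.0% ± 0.24 of the reads, overlapped between the groups. That difference of 0.77 percentage points became 2.20 among circRNAs found in at least 2 libraries (exact permutation p = 0.1) and 0.26 without mitochondrial junctions. The filter behind the value of 2.20 also keeps the 249 circRNAs found in sh3-2 B and C alone, and their part in it was not tested.

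The intronic share was as far apart without the mitochondrial circles, at 8.90%, 8.26% and 8.43% in sh3-2 and 7.12%, 6.34% and 6.80% in controls. By span, the separation was seen for narrow intronic circles. Intronic circles spanning under 1 kb of genome held 4.39%, 4.48% and 3.50% of the sh3-2 reads and 3.162%, 2.56% and 3.09% of the control reads, with the groups apart (exact permutation p = 0.1). Intronic circles of 1 kb and over held 4.68% ± 0.73 and 3.89% ± 0.14, and these groups overlapped. Exonic circles under 1 kb showed no such separation, with 5.46% ± 1.20 in sh3-2 and 5.83% ± 0.68 in controls. Over all 6648 circRNAs, 73 (1.1%) were above all controls in every sh3-2 library after scaling and 63 (0.948%) were below. For the 731 intronic circles these numbers were 11 (1.505%) and 1 (0.137%), and for the 4725 exonic circles 55 (1.16%) and 58 (1.23%), so the share above was near that of all circRNAs in both classes. The sh3-1 libraries, compared with the same controls, had intronic shares of 9.56%, 8.66% and 6.94%, which overlapped those of sh3-2 (difference of means 0.42 percentage points, exact permutation p = 0.8). In the other classes sh3-1 and sh3-2 were apart. The exonic share was 78.4%, 80.5% and 81.9% in sh3-1, above every sh3-2 library and with a mean near that of the controls, and the sense overlapping share was 11.2%, 10.5% and 11.1%, below every sh3-2 library. Each of these differences had an exact permutation p of 0.1, or 0.45 adjusted over 9 comparisons of these constructs.

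**Figure D1:**
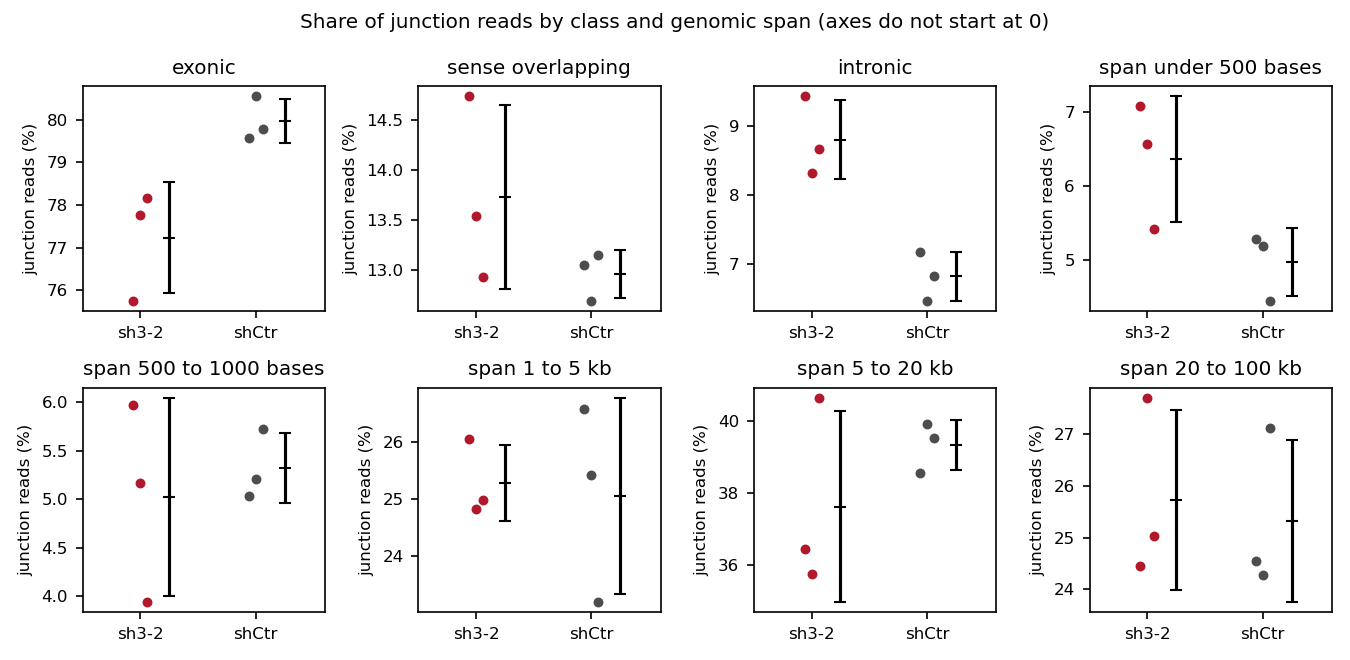
Share of junction reads in each library (y axis, percent, not starting at 0) by class and by genomic span, for the 3 sh3-2 libraries (red) and the 3 shCtr libraries (grey). Bars are the mean ± SD. The exonic, intronic and under 500 bases panels show groups that do not overlap.

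Genomic span, the distance between both ends of the junction, ran from 150 bases to 99.6 kb. Circles spanning under 1 kb held 13.1%, 11.7% and 9.36% of the sh3-2 reads and 10.3%, 10.4% and 10.2% of the control reads, so that sh3-2 C lay below every control (exact permutation p = 0.4). Circles under 500 bases were separated, at 7.08%, 6.57% and 5.42% against 5.29%, 5.19% and 4.45% (exact permutation p = 0.1), but without mitochondrial junctions these groups overlapped (6.11% ± 0.88 against 4.91% ± 0.43, exact permutation p = 0.2). The spans of 1 to 5 kb, 5 to 20 kb and 20 to 100 kb held 25.3%, 37.6% and 25.7% of the sh3-2 reads and 25.1%, 39.3% and 25.3% of the control reads on average, each with overlapping groups. The median span per read was 8.21 ± 0.92 kb in sh3-2 and 8.60 ± 0.73 kb in controls (exact permutation p = 0.6).

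The widest circles of at least 12 reads came from RNF13, an endosomal ubiquitin ligase (75.2 kb), ABCC4, a drug and nucleotide exporter (72.6 kb), and PTK2, focal adhesion kinase (72.5 kb). The RNF13 circle had 12, 11 and 14 reads in sh3-2 and 17, 9 and 15 in controls, and the groups of all 3 wide circles overlapped. The narrowest with a named gene lay in CDK14, a cyclin-dependent kinase, and spanned 246 bases, with 6, 0 and 6 reads against 0, 0 and 1. Circles with a circBase identifier, which marks junctions catalogued before, held 70.4% ± 1.61 of the sh3-2 reads and 72.6% ± 1.76 of the control reads, with overlapping groups (exact permutation p = 0.2). Among circRNAs found in at least 2 libraries the difference was -6.54 percentage points, with an exact permutation p of 0.1. This filter also keeps the 249 circRNAs found in sh3-2 B and C alone, and their part in the difference was not tested.

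By chromosome, the mitochondrial genome differed most in proportion. Mitochondrial junctions numbered 36, 44 and 50 reads in sh3-2 A, B and C and 7, 17 and 7 in shCtr A, B and C, or 0.930%, 1.17% and 1.20% of the reads against 0.127%, 0.306% and 0.120%. The sh3-2 mean of 1.10% ± 0.15 was 5.95 times the control mean of 0.185% ± 0.11, and every sh3-2 library lay above every control (exact permutation p = 0.1, 0.625 adjusted over chromosomes). In sh3-1 the shares were 0.557%, 0.239% and 1.03%, which overlapped those of sh3-2 (difference 0.49 percentage points, exact permutation p = 0.2, 0.45 adjusted over 9 comparisons of these constructs).

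The 33 mitochondrial circles carry 9 host names in the sheets, none has a circBase identifier, and 20 were found in sh3-2 only against 5 in controls only. Mitochondrial transcripts have no introns and are not spliced, so the authors' class names for these circles do not describe exon joining there. Reads of junctions starting at position 959 of the hg19 mitochondrial sequence numbered 4, 14 and 23 in sh3-2 and 1, 5 and 0 in controls, which overlap as counted but are apart after scaling, at 10.3, 37.1 and 55.2 per 10000 against 1.82, 9.01 and 0 (exact permutation p = 0.1). Reads of junctions starting at position 1680 numbered 16, 13 and 11 against 1, 7 and 3, with the groups apart as counted and after scaling. Junctions under 500 bases gave 11, 12 and 14 reads against 5, 5 and 2, and wider ones 25, 32 and 36 against 2, 12 and 5, so both widths were higher in each sh3-2 library. As 1 example chosen after its values were seen, under the host name MTND5, which denotes a subunit of respiratory complex I, a circle had 2, 5 and 2 reads in sh3-2 and 0 in all controls, which makes it at least 4.29-fold higher (floor of 3 counts over the control group). Folds given as at least, here and below, leave out counting error and spread between libraries in the group that has reads. The labels name no step that removes linear RNA, and whether differences in linear mitochondrial RNA move with the mitochondrial junction counts was not tested.

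Chromosomes 22, 6 and 21 were the others whose groups did not overlap. Chromosome 22 held 2.48%, 1.83% and 1.49% of the sh3-2 reads and 1.38%, 1.35% and 0.877% of the control reads. Without the circle of MYH9 its shares were 1.26% ± 0.35 and 0.951% ± 0.14, and the groups overlapped (exact permutation p = 0.2). Chromosome 6 held 4.11%, 4.61% and 3.84% against 3.80%, 3.26% and 3.18%. Chromosome 21 was lower in sh3-2, at 1.45%, 0.689% and 1.22% against 1.51%, 1.73% and 1.55%. Each of these reached the smallest exact permutation p of 0.1 and an adjusted p of 0.625. The chromosomes with the largest shares overlapped: chromosome 1 held 9.03% ± 0.32 and 9.01% ± 0.97, chromosome 3 held 7.61% ± 0.46 and 7.33% ± 0.42, and chromosome 2 held 7.60% ± 1.09 and 8.50% ± 0.81.

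**Figure D2:**
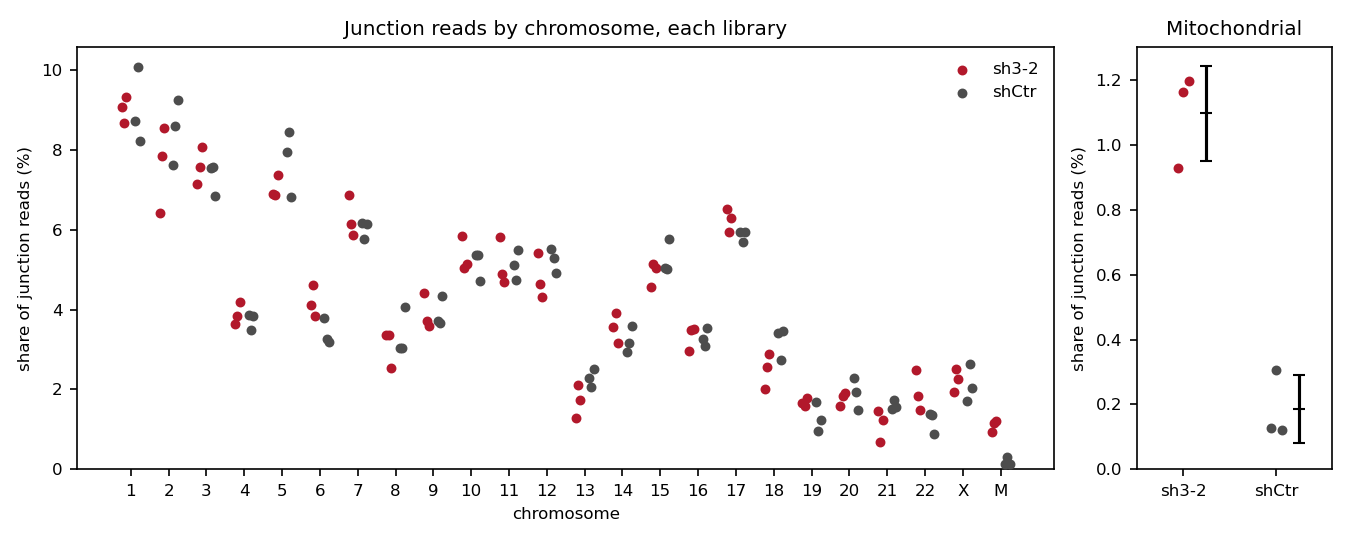
Share of junction reads from each chromosome in each library (y axis, percent), for sh3-2 (red) and shCtr (grey), with the mitochondrial genome (M) repeated at right with mean ± SD. The mitochondrial points of sh3-2 lie between 0.930% and 1.20% and those of the controls at or below 0.306%.

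On chromosome 21, ADARB1, which encodes an adenosine deaminase that edits RNA, hosted 15 listed circles. Its summed level was 12.9, 5.30 and 14.4 reads per 10000 in sh3-2 and 19.99, 27.0 and 22.3 in controls, below all controls in each library. It did not pass the main filter, and in the fit of hosts with at least 10 reads its log2 fold change was -1.16 with a standard error of 0.71 (edgeR adjusted p = 0.771). BACH1, a transcription repressor also on chromosome 21, gave 3, 2 and 5 reads from its 8.47 kb circle in sh3-2 and 9, 9 and 10 in controls, whereas its 3.63 kb circle overlapped.

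Single circRNAs were tested with the quasi-likelihood test of edgeR, which compares scaled counts with the spread between libraries. The filter on low counts left 24 circRNAs, holding 9.40% of the junction reads, 11 higher and 13 lower in sh3-2. None passed a false discovery rate of 0.05 (0% called, 1 with an unadjusted p under 0.05), and DESeq2 called none either, with the same count at an unadjusted p under 0.05. With a filter of at least 10 reads, 387 were tested and 1 was called (0.258%), and at an unadjusted p under 0.05 the numbers were 17 higher and 21 lower. At p under 0.05 the authors' deposited table gives 23 circRNAs higher and 22 lower, with a smallest adjusted p of 0.558.

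None of the abundant circles passed the test, and most overlapped between the groups. The SPECC1 circle at chr17:20107646-20109225, from a gene for a cytoskeletal coiled-coil protein, was the most abundant with 101, 70 and 85 reads in sh3-2 and 101, 85 and 91 in controls, or 217 ± 39.4 and 164 ± 16.7 per 10000. Scaled levels of every sh3-2 library were above every control, but the edgeR log2 fold change was 0.26 with a standard error of 0.19 (adjusted p = 0.733). PLOD2, a collagen lysyl hydroxylase, had 78.9 ± 5.33 and 79.2 ± 22.8 per 10000. HIPK3, a protein kinase whose circle is widely studied, had 63.5 ± 10.1 and 41.9 ± 15.8 for chr11:33307959-33309057, with overlapping groups. GUSBP1, a pseudogene with near-identical copies between which reads may be split, had 65.1 ± 5.16 and 81.7 ± 26.0. The circle of FIRRE, a nuclear long noncoding RNA, had 12, 20 and 17 reads against 17, 16 and 15, which after scaling put every sh3-2 library above every control.

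MYH9, which encodes the heavy chain of nonmuscle myosin IIA, hosted the circle with the smallest p among the 24 of the main filter. This circle, at chr22:36716843-36723533 with a predicted length of 378 bases and no circBase identifier, had 32, 26 and 21 reads in sh3-2 A, B and C and 16, 22 and 4 in shCtr A, B and C. Its level was 82.7, 68.9 and 50.4 per 10000 in sh3-2 and 29.1, 39.6 and 6.88 in controls, with no overlap. The edgeR log2 fold change among circRNAs was 1.30 with a standard error of 0.48 and an adjusted p of 0.196, which did not pass. In sh3-1 the same circle had 21, 26 and 17 reads, or 38.6 ± 7.90 per 10000.

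Reads were also summed over all circles of a host gene and tested in the same way. Of 58 hosts tested, 29 were higher and 29 lower in sh3-2, with a median log2 fold change of -0.01. MYH9 was the 1 host called (1.72%), and it rose by a log2 fold change of 1.38 with a standard error of 0.38 (edgeR adjusted p = 0.04996). Its host sum is the single circle above, so both fits rest on the same 121 reads and differ in the features fitted beside it and the number tested. The call is at the threshold, and it was lost under DESeq2 (adjusted p = 0.424), with no filter on low counts (0.520), with a filter of at least 10 reads (0.466) and in a fit with the sh3-1 libraries (0.264). The edgeR adjusted p was 0.226 without sh3-2 A, 0.0650 without sh3-2 B, 0.340 without shCtr A and 0.212 without shCtr C, and 0.00820 without sh3-2 C and 0.000741 without shCtr B. Without shCtr C, the library with 4 MYH9 reads, the log2 fold change was 0.89.

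Of the other hosts, 4 more were above all controls and 4 were below in every library, beside 8.62% of tested hosts above and 6.9% below in all. GDI2, a recycling factor of Rab GTPases, had 25.8, 66.2 and 24.0 reads per 10000 in sh3-2 and 16.4, 18.0 and 10.3 in controls (log2 fold change 1.33 ± 0.61 SE, edgeR adjusted p = 0.476), and without sh3-2 B its log2 fold change was 0.77. Only the sh3-2 libraries of GDI2 reached the level that the filter on low counts asks for, so no support is drawn from its separation. HIPK3 was at 75.0, 63.6 and 60.0 against 43.6, 27.0 and 56.7. The other hosts above all controls were SPECC1 and CSNK1G3, a casein kinase, with log2 fold changes of 0.36 and 0.75.

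Among the hosts below all controls, SFMBT2, a Polycomb group protein, had 5.17, 7.95 and 12 reads per 10000 in sh3-2 and 25.4, 28.8 and 32.7 in controls (log2 fold change -1.78 ± 0.70 SE, edgeR adjusted p = 0.302). ERBB2IP, also called erbin, a scaffold protein at the basolateral membrane that binds the receptor ERBB2, had 10.3, 13.2 and 4.80 against 29.1, 30.6 and 29.2 (log2 fold change -1.67 ± 0.67 SE, adjusted p = 0.302). The 3 sh3-2 values of each lay under the control range, but neither passed the adjusted test. In SFMBT2 and ERBB2IP only the control libraries reached the level that the filter on low counts asks for. Both hosts entered the test through the controls alone, so no support is drawn from their separation or their high control values. MPP6, a membrane scaffold protein, and SEMA3C, a secreted semaphorin, had log2 fold changes of -0.56 and -0.97.

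Among the 8 hosts with the smallest p in each direction, those whose groups overlapped were MGA, a partner of the transcription factor MAX (0.72), ARHGAP5, a GTPase-activating protein (0.46), NUSAP1, a spindle protein (0.92), and DHTKD1, a mitochondrial dehydrogenase (0.49), on the higher side in log2 fold change. On the lower side they were LIFR, the leukaemia inhibitory factor receptor (-0.92), MIB1, a ubiquitin ligase of Notch ligands (-0.82), CANX, the chaperone calnexin (-0.78), and RHOBTB3 (-0.43). None of these had an adjusted p under 0.560. CPS1, the urea cycle enzyme, had the most listed circles, 23, and its summed level was 38.7 ± 12.3 and 37.9 ± 2.91 per 10000.

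**Figure D3:**
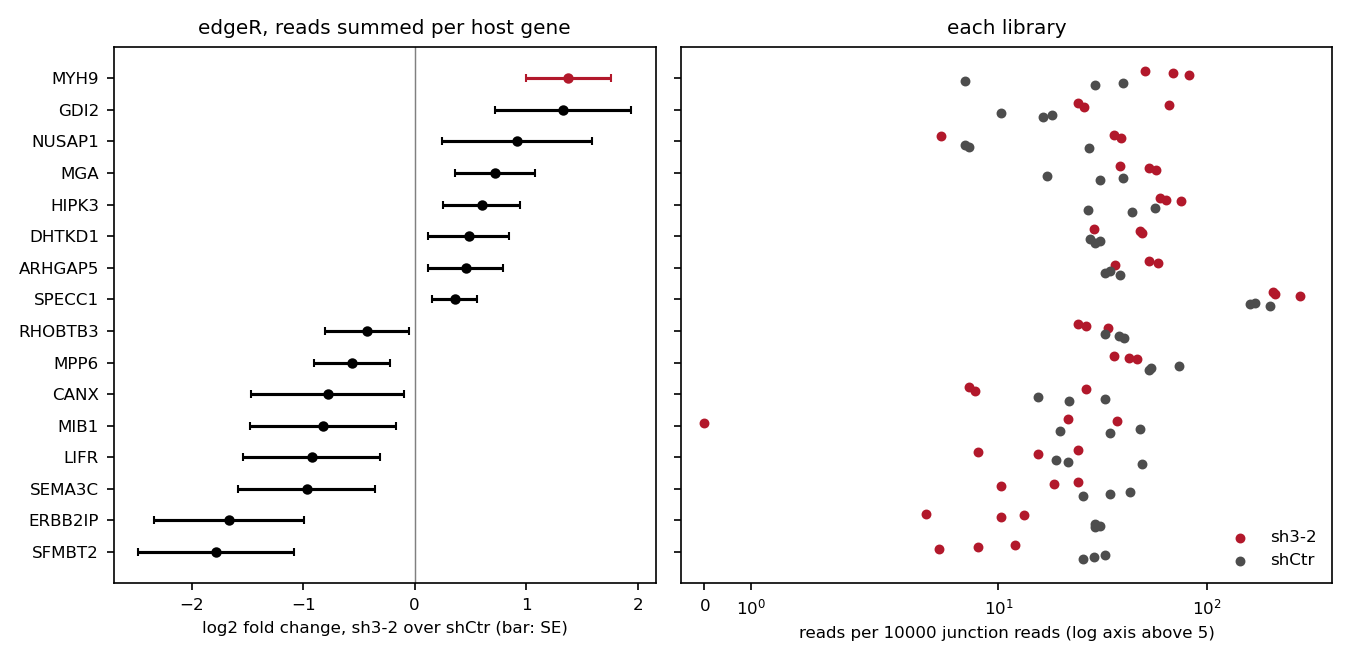
At left, log2 fold change of sh3-2 over shCtr from edgeR for the 8 hosts with the smallest p in each direction (bars are standard errors, red marks the 1 host called). At right, reads per 10000 junction reads in each sh3-2 (red) and shCtr (grey) library on an axis that is logarithmic above 5. MYH9, SFMBT2 and ERBB2IP show groups that do not overlap, and SFMBT2 and ERBB2IP passed the filter on low counts through the controls alone.

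Most circles with separate groups were too rare for the main test. Among the 387 with at least 10 reads, 22 (5.68%) were above all controls and 27 (6.98%) below. The examples below are the 8 in each direction with the largest difference in mean level, so their separation is how they were chosen and no test is drawn from it. All 16 were exonic and had circBase identifiers, beside 352 exonic circles and 358 with an identifier among the 387, so this does not set them apart.

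The GDI2 circle at chr10:5836848-5842668 had 5, 13 and 5 reads in sh3-2 and 0, 0 and 0 in controls, which makes it at least 10.95-fold higher by the floor of 3 counts over the control group. It was the 1 circle called under the filter of at least 10 reads (edgeR adjusted p = 0.00453), was not tested under the main filter, and had an adjusted p of 0.157 with no filter. As all its reads are in sh3-2, it passed that filter through sh3-2 alone, and no support is drawn from the call. In sh3-1 it had 0, 0 and 8 reads. FBN2, the matrix protein fibrillin-2, had a circle with 2, 4 and 9 reads against 0 in all controls (at least 7.14-fold higher), and CLNS1A, an assembly factor of spliceosomal ribonucleoproteins, one with 6, 1 and 5 against 0 (at least 5.71-fold higher). FGD6, an exchange factor of the Cdc42 kind, had 18.8 ± 6.0 reads per 10000 in sh3-2 and 4.73 ± 2.72 in controls. The others were in HP1BP3, a chromatin protein (2, 10 and 5 reads against 0, 1 and 1), CREBBP, a histone acetyltransferase (6, 6 and 3 against 1, 0 and 3), ATP5C1, a subunit of ATP synthase (8, 7 and 9 against 5, 9 and 4), and MKLN1, muskelin (3, 4 and 5 against 1, 0 and 0).

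On the lower side, the ERBB2IP circle at chr5:65284463-65290692 had 0, 1 and 0 reads in sh3-2 and 10, 13 and 7 in controls, or 0.883 ± 1.53 and 17.9 ± 5.70 per 10000. In the fit of circles with at least 10 reads its edgeR log2 fold change was -4.07 with a standard error of 1.19 (adjusted p = 0.125). With 30 of its reads in controls and 1 in sh3-2, it passed that filter through the controls, and no support is drawn from this fit. The PPFIA1 circle, from the gene of the adhesion scaffold liprin-alpha-1, had 0 reads in all sh3-2 libraries and 4, 5 and 8 in controls, at least 3.97-fold lower. The SFMBT2 circle at chr10:7318854-7327916 had 0, 2 and 4 reads against 6, 10 and 13. CAMSAP1, which binds microtubule minus ends, had a circle at 10.1 ± 5.13 and 21.4 ± 6.45 per 10000. The remaining circles were in ZNF292, a zinc finger protein, PMS1, a mismatch repair protein, IARS, the isoleucyl-tRNA synthetase, and PTK2, with 1, 2, 1 and 2 reads in sh3-2 in all and 18, 19, 17 and 17 in controls. The HECTD2 circle, from a gene for a ubiquitin ligase, had 0 reads in sh3-2 and 3, 2 and 7 in controls, at least 2.80-fold lower. None of these lower circles passed the adjusted test.

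**Figure D4:**
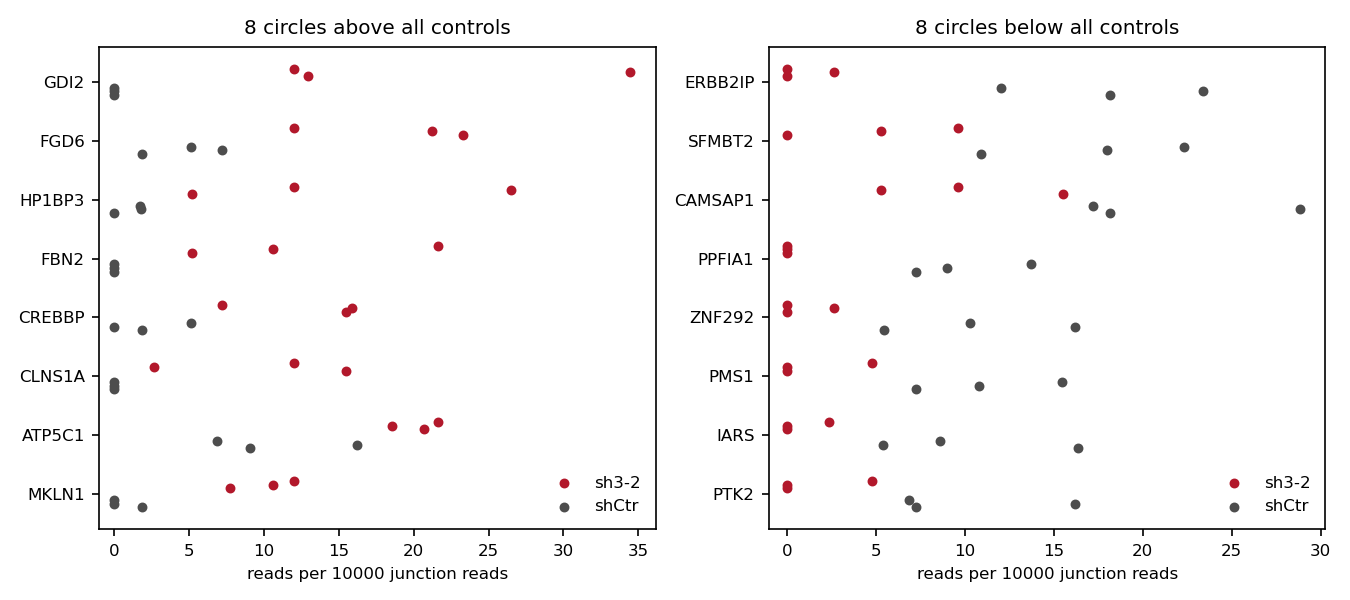
Reads per 10000 junction reads in each sh3-2 (red) and shCtr (grey) library for the 16 circles with the largest mean differences among those not tested and not overlapping. The left panel holds the 8 higher in sh3-2 and the right panel the 8 lower, and they were chosen for this separation.

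Circles of the same host were set side by side. Of the hosts, 55 had at least 2 circles of at least 10 reads, 125 circles in all, and in 43 of these hosts some circles shared a junction end. Of the 125, 10 (8%) were above all controls and 10 (8%) below, near the 5.68% and 6.98% of all circles with at least 10 reads, and 0 hosts had a circle on each side. The 4 hosts described next, and BACH1 above, were chosen after their values were seen.

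All 3 GDI2 circles end at position 5842668 of chromosome 10. The 5.82 kb circle made up 51.1% of the GDI2 reads in sh3-2 and 0% in controls. The 15.6 kb circle had 2, 4 and 4 reads in sh3-2 and 2, 5 and 6 in controls, and the 26.9 kb circle 3, 8 and 1 against 7, 5 and 0, both with overlapping groups. In RNF13, the 25.8 kb circle had 0 reads in sh3-2 and 5, 3 and 4 in controls, at least 2.80-fold lower, while the 75.2 kb circle with the same end overlapped. In NUSAP1, the 11.9 kb circle had 7, 0 and 5 reads in sh3-2 and 0 in controls, and the 21.3 kb circle with the same end 8, 2 and 8 against 6, 0 and 1.

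In ERBB2IP the 6.23 kb circle made up 9.09% of the host's reads in sh3-2 and 60% in controls. The other ERBB2IP circle of at least 10 reads, at 1.55 kb, had 0, 2 and 0 reads against 1, 3 and 9 and overlapped.

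**Figure D5:**
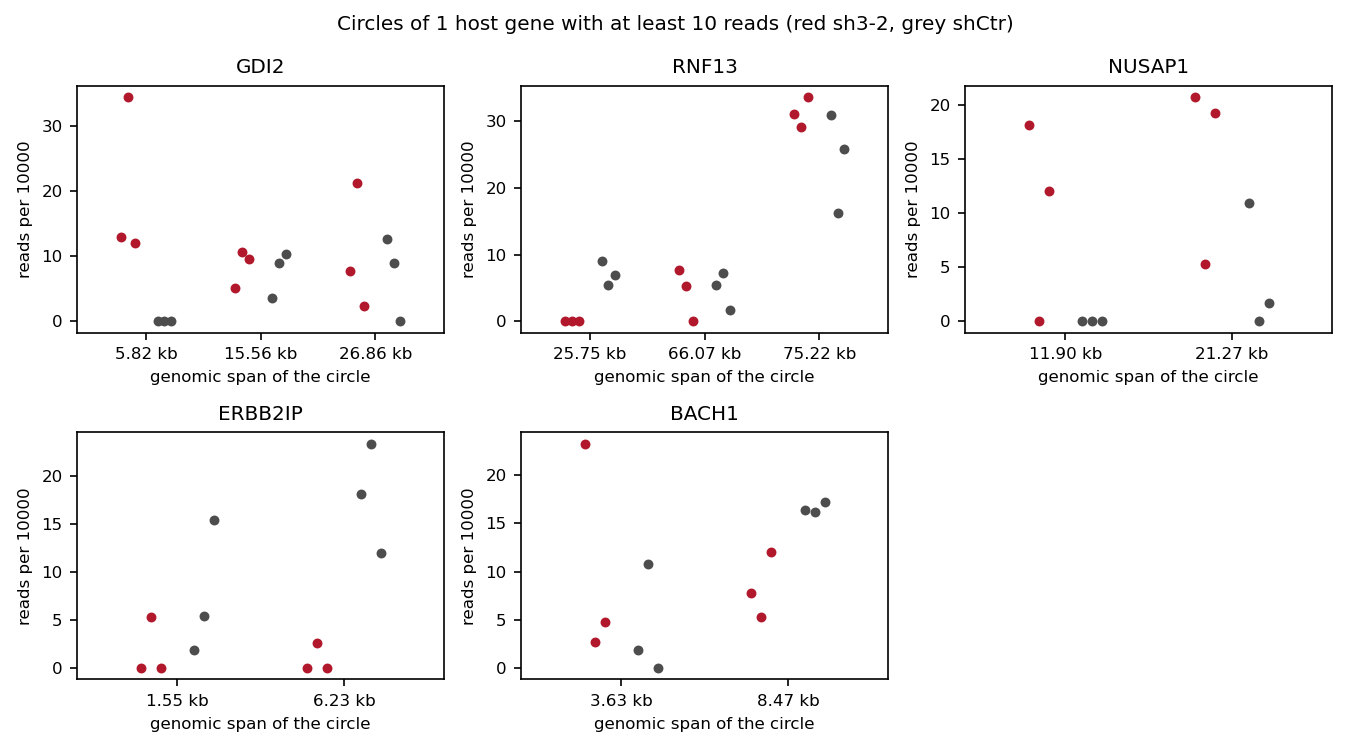
Reads per 10000 junction reads of each circle of at least 10 reads in 5 host genes, by genomic span, in each sh3-2 (red) and shCtr (grey) library, for hosts chosen after their values were seen. The 5.82 kb circle of GDI2 and the 25.8 kb circle of RNF13 are at 0 in 1 group only, while other circles of these hosts overlap.

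Lists of host genes were described by counts, beside a median log2 fold change of -0.01 over all 58 hosts tested. Of 28 genes whose circles are often described, 25 hosted listed circles at a summed level of 521 ± 56.8 per 10000 in sh3-2 and 491 ± 48.6 in controls. Of its 10 hosts tested, 5 were higher and 5 lower, 0 were called and the median was -0.14. FBXW7, a tumour suppressor that selects proteins for ubiquitination, is 1 of them, with 7, 9 and 9 reads in sh3-2 and 9, 32 and 10 in controls.

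Among 34 genes of actomyosin and cell shape, 23 hosted listed circles, at 372 ± 72.3 and 277 ± 34.8 per 10000 with overlapping groups. The hosts tested were MYH9 and SPECC1, both higher, and 1 of them, MYH9, was called. Of 22 genes of the IGF2BP family and the m6A machinery, 12 hosted circles and none was tested, and the sums were 40.0 ± 9.05 and 34.6 ± 15.8. The reader YTHDF2 had 4, 0 and 2 reads against 5, 3 and 3.

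For receptor kinases and squamous cancer drivers, 13 of 26 genes hosted circles, at 43.9, 42.4 and 67.2 per 10000 in sh3-2 and 69.1, 79.3 and 87.7 in controls, without overlap. No host of this list was called. YAP1 and TEAD1, coactivator and DNA-binding partner of the Hippo pathway, gave 5 and 6 reads in sh3-2 and 16 and 18 in controls, with overlapping groups for each gene. For TGF-beta and SMAD genes, 12 of 26 hosted circles, at 37.1 ± 4.72 and 54.9 ± 16.1 with overlap, and the host tested, SMAD2, had a log2 fold change of -0.21. For HECT ubiquitin ligases, 20 of 23 hosted circles, at 102 ± 26.1 and 124 ± 36.8 with overlap, and the host tested, HERC4, had a log2 fold change of -0.50. Neither passed the test.

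The MeRIP-seq sheets hold m6A entries on circRNAs for the same construct, as folds between the groups with no value per library. The authors' deposited table holds 9312 entries lying on 2153 of the listed circRNAs (32.4%), of which 855 (9.18%) passed an adjusted p of 0.05 there, 419 higher and 436 lower in sh3-2. On circles with at least 10 reads, 41 of 371 entries passed in the authors' deposited table, 12 higher and 29 lower. On the circles below all controls in junction reads, 30 of 40 entries were lower. Beside this, 51.7% were lower over all listed circRNAs and 61.2% on circles with at least 10 reads. The 7 that passed on circles below all controls, on 5 circRNAs, were all lower in the authors' deposited table. On the circles above all controls, 36 of 65 were lower and 5 passed, 2 higher and 3 lower. The sheets do not state whether the fold is corrected for the input, and entries of 1 circle share its RNA. Entries are genomic intervals that the sheets assign to circles. Whether their signal comes from the circle or from linear RNA of the same gene was not tested.

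The 5 entries on the MYH9 circle had folds of 1.06 to 1.17 in the authors' deposited table, 4 of them lower, and none passed. The PPFIA1 circle had 2 entries, both lower, by 1.34-fold and 1.23-fold in the authors' deposited table, and neither passed. On the FGD6 circle, 1 entry was higher by 1.16-fold with an adjusted p of 0.0128 in the authors' deposited table. On the 93.5 kb sense overlapping circle of IGF2BP3, 4 entries passed in the authors' deposited table, 3 lower and 1 higher. The listed circles of IGF2BP3 had 17 junction reads in all. Whether these entries come from a circle or from linear RNA of the gene was not tested. The higher one, at chr7:23492422-23492660, had the largest fold, 4.82, with an adjusted p of 0.0393 in the authors' deposited table. The lower ones there include chr7:23509222-23509760 at 2.82-fold with an adjusted p of 1.42e-07 and chr7:23508022-23508520 at 2.58-fold with an adjusted p of 1.33e-07.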

How the data were processed

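Circular RNA was measured in total RNA depleted of ribosomal RNA, with 150 bp paired reads, per the labels' protocols. cutadapt 1.9.3, STAR 2.5.1b, edgeR 3.16.5 and build hg19 were used, per the submitters' processing notes, and no source used here names the circRNA caller. The deposited sheets give whole-number junction read counts with no normalization. The authors also deposited a log2 fold change and a p-value for each circRNA, and for m6A a fold (ratio) of at least 1 with a direction, a p-value and an adjusted p-value. Each library's deposited log2 CPM (24 columns) was not used.

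The higher and lower sheets were stacked. Counts were fitted with edgeR 4.0.16 in R 4.3.3 (glmQLFit robust, TMM, filterByExpr defaults, library sizes from all junction reads, two-sided, Benjamini-Hochberg, call under 0.05), alone or summed by host. DESeq2 1.42.0 was an alternative. Group differences of a share or level were tested by exact two-sided permutation (scipy 1.17.1). A share is relative to the 3775 to 5818 junction reads of a library. Floors cover counting error alone, as the junction reads carry no molecular identifiers. Folds given as at least take the count of the group that has reads as exact. The fits were tested on simulated data in 3 designs. In the first 2, where the changed features were altered in sh3-2 alone, many unchanged features were called as well. The simulation, not the fit, was then altered so that each change was split over both groups, and that version was kept. It still called a few unchanged features, and fitted folds of unchanged features were offset towards lower values in sh3-2. The cause was not tested, and every fitted fold change and call carries that limit. The circRNAs, lists, tests and named genes were chosen with earlier results of these data known. Named genes were the most abundant, those with the smallest p, those with the largest differences without overlap, the hosts with most circles, the widest and narrowest circles, and members of the lists. The comparisons with sh3-1, the lower bounds on folds, the calls listed by setting and the library sizes over tested features were added after seeing the data. Each alternative setting was tried 1 at a time, and the effects are given at the end. Some items are not reported here.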

Additional observations from a re-analysis of the deposited data

How the results depend on the processing

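Depth limits the fits: 24 circRNAs and 58 hosts passed the filter on low counts. The single MYH9 call was lost (0 calls) under DESeq2, with no filter, with at least 10 reads, and in a fit of all 9 libraries, and leaving out each library in turn gave 0 to 1 host calls. The 1 host called without sh3-2 A was the mitochondrial name DQ582265 (log2 fold change 3.24, edgeR adjusted p = 0.0114), not MYH9. DQ582265 was not tested with all libraries kept. Without sh3-2 A only its sh3-2 libraries reached the level that the filter asks for, so no support is drawn from that call. MYH9 stayed the 1 host called with library totals in place of TMM and with library sizes summed over the tested features, the latter chosen after seeing the data. With at least 10 reads 1 circRNA was called, the GDI2 circle that passed this filter through sh3-2 reads alone. Under the main filter, leaving out each library gave 0 circRNA calls. Non-overlapping chromosomes numbered 4 with no library left out and 5 to 7 when each library was left out. Smaller groups separate more readily, so the higher numbers are not read as a stronger result. Keeping circRNAs found in at least 2 libraries turned the difference in circRNAs at equal depth to 48.3 and that in median span to 0.246 kb. That filter keeps circRNAs shared by sh3-2 B and C alone, and their part was not tested. The difference in median span ran from -0.664 to 0.143 kb when each library was left out, with 0.0343 kb without shCtr C. The difference for spans of 1 to 5 kb turned to -0.159 without sh3-2 A, -0.710 without shCtr C and -0.689 percentage points for circRNAs in at least 2 libraries, with 0.983 at the highest without shCtr A. That for 20 to 100 kb turned to -0.582 without sh3-2 B and -0.111 without shCtr B, with 1.31 without shCtr C and 1.32 for circRNAs in at least 2 libraries. The log2 fold changes of the RARS circle (-0.059 without shCtr C to 0.62) and the RNF13 circle (-0.0014 without shCtr B to 0.53) turned sign. The causes were not tested. No pairing by the letters A, B and C was seen (correlations of same-letter deviations 0.0307, -0.00587 and -0.00443 over 387 circRNAs). Counting error at such low counts could hide a pairing. With the letters as a replicate block, 0 circRNAs and 1 host were called, and 8 chromosomes had the same direction in every pair. With 3 pairs an exact sign-flip test cannot go below p = 0.25, so these 8 chromosomes are not read as a result.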
